A study of Mus musculus with 2 samples.

Results

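The 4 inhibitor of DNA binding (ID) genes, Id1, Id2, Id3 and Id4, and the 3 E protein genes, Tcf3, Tcf4 and Tcf12, were followed in testes of UBR2-/- and wild type mice. Every probe set whose only gene symbol in the platform annotation is one of these names was taken, which gave 19 of 22626 non-control probe sets for 7 of 12393 genes. The genes were chosen from a family in which the signals of these same arrays were already known, with Id4 seen to be lower in UBR2-/- testes, so their values are a description and carry no test. Testes were UBR2-/- or wild type, and in both genotypes the mice were 17 days of age and of 129SV and C57BL mixed strain, an age at which many germ cells are in meiotic prophase. UBR2 recognises proteins by their first residue and attaches ubiquitin to them, and the sources used here do not say how the allele was made. Each genotype had 1 oligonucleotide array (n = 1), for which 2 testes of different littermates are named, and the sources used here do not say whether their RNA was pooled. Without a second array of either genotype there was no replicate check and no test was possible, and each difference describes these 2 arrays.

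ID proteins carry a helix-loop-helix, through which such factors pair, but lack the basic stretch that touches DNA. They pair with E proteins, the widely expressed basic helix-loop-helix (bHLH) factors, and keep them from binding DNA and from joining tissue-specific bHLH partners. E protein dimers bind a short DNA motif called the E box, and BMP signals acting through SMAD proteins are well known inducers of Id genes. In the mouse testis Id4 is known as a gene of spermatogonial stem cells, its protein has also been described in spermatocytes, and Sertoli cells, which nurse the germ cells, have been described to make several ID proteins. Tcf3 and Tcf4 are here the E protein genes with Entrez identifiers 21423 and 21413, not the Wnt pathway factors that share those names in older usage.

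Signals are linear probe set intensities on the authors' scale, and ratios are UBR2-/- over wild type on the log2 scale. A signal below the 40th percentile of its array, 24.7 for UBR2-/- and 24.4 for wild type, was raised to that floor before the ratio was taken. A probe set was compared where its mean signal reached the mean floor, which held for 13628 probe sets and for 16 of the 19 followed here. All 16 passed through signals above the floor on the wild type array, and 15 of them were also above it on the UBR2-/- array. The median log2 ratio of all compared probe sets was 0.07, with quartiles of -0.18 and 0.27, and where 2 probe sets read the same gene their disagreement gave an SD per log2 ratio of 0.24 among dim, 0.18 among intermediate and 0.13 among bright probe sets. This SD is a robust one, scaled from the median absolute deviation of the differences within pairs, so pairs that disagree strongly count little. It leaves out error between arrays and animals. Ubr2 itself had a signal of 14.3 on the UBR2-/- array, under its floor, against 57.2 on the wild type array, by 1 probe set, and the sources used here do not place it relative to what was deleted. The 45 probe sets for spiked-in bacterial and phage transcripts had median signals that differed by a log2 ratio of 0.36, and scaling on them lowers every ratio given here by that amount.

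In UBR2-/- testes 1 of the 16 compared probe sets was lower by 2-fold or more, beside 2.95% of all compared probe sets, and 0 were higher by 2-fold or more, beside 0.455% of all. The 1 was a probe set of Id4. Id4 lay apart from the other ID genes, Tcf3 was the E protein gene farthest above 0, and the probe sets of Tcf12 and Tcf4 lay on opposite sides of the median of all probe sets. Over the 7 compared ID probe sets the median log2 ratio was -0.18, and without those of Id4 the other 4 had a median of 0.09, so the side of 0 on which the ID genes fell as a group was set by Id4. The 9 compared E protein probe sets had a median of -0.02 and ran from -0.54 to 0.60.

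**Figure D1:**
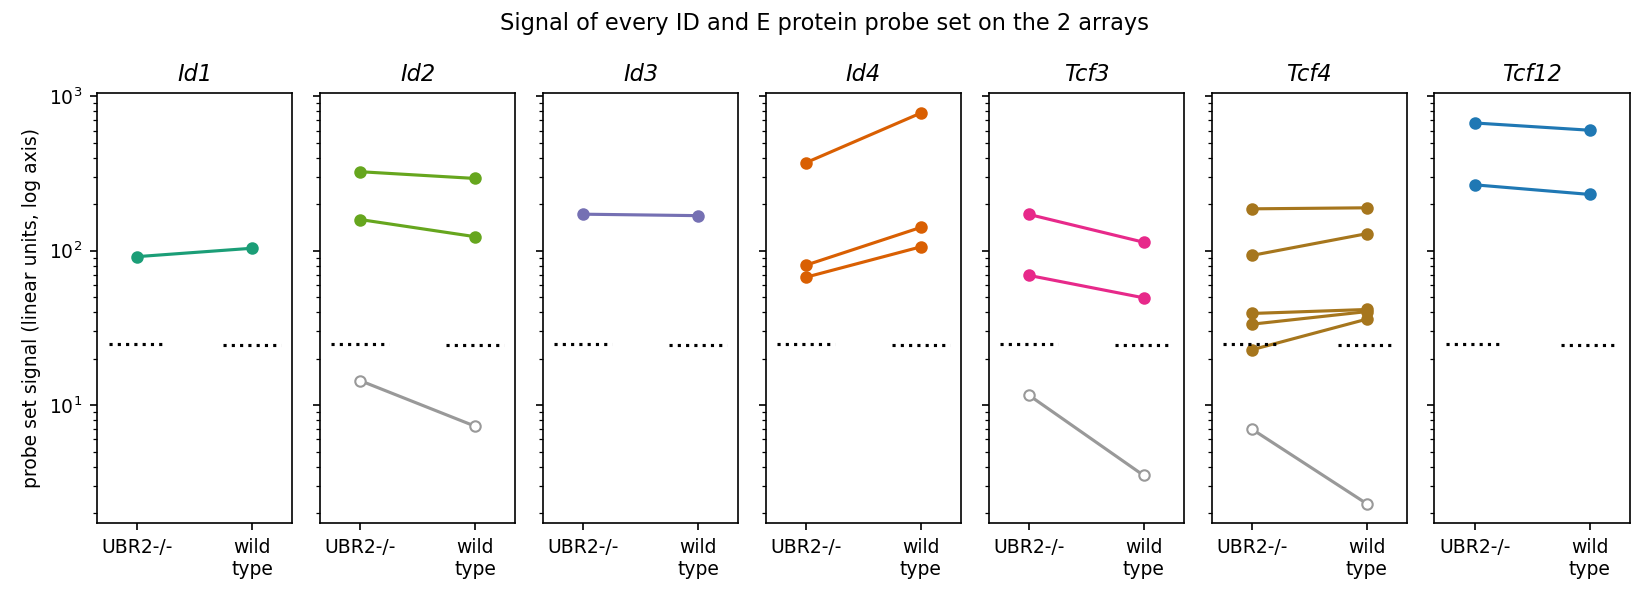
Signal of each probe set (linear units on a log axis) on the UBR2-/- array (left in each panel) and the wild type array (right), 1 panel per gene; a line joins the 2 values of 1 probe set, dotted marks are the floors of 24.7 and 24.4, and grey open circles are probe sets too dim to be compared. All 3 lines of Id4 stand lower at UBR2-/-, while both coloured lines of Tcf3 and of Tcf12 stand higher there.

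Id4 was lower on the UBR2-/- array in all 3 of its probe sets. Its brightest, 1423259_at, had a signal of 371.3 on the UBR2-/- array against 778.8 on the wild type array. That is 47.7% of the wild type signal, a 2.10-fold lower value with a log2 ratio of -1.07, and only 2.55% of all compared probe sets had a lower ratio. The second, 1423260_at, had signals of 80.6 in UBR2-/- and 141.5 in wild type testes, with a log2 ratio of -0.81. The third, 1450928_at, had 67.3 in UBR2-/- and 105.9 in wild type testes, with a log2 ratio of -0.65. The mean over the 3 was -0.84 ± 0.21 (SD over probe sets, n = 3), a spread between probe sets and not between animals. All 3 were designed from the same clone sequence, so they share a target and are no independent readings. Each was at least 1.5-fold lower, as were 7.25% of all compared probe sets, and of 1014 genes with 3 or more compared probe sets 2.37% had all of them at least 1.5-fold lower. The distance of the brightest probe set from the median of all, -1.14, was 8.87 times the SD between probe sets of its brightness, and for the dimmer ones it was 3.64 and 2.99 times. These multiples are no test, since Id4 was already known to be lower when the genes were chosen. The SD used for the brightest, 0.13, was also smaller than the 0.21 among the probe sets of Id4 itself.

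The other inhibitors lay nearer the median of all probe sets, within 1.66 SDs between probe sets on either side of it. Id2, which is made in many tissues, had signals of 324.6 in UBR2-/- and 293.6 in wild type testes by its brightest probe set, 1435176_a_at, a log2 ratio of 0.14. Its probe set 1422537_a_at had 159.1 in UBR2-/- and 123.2 in wild type testes, a log2 ratio of 0.37, so both stood somewhat higher on the UBR2-/- array. A further Id2 probe set, 1453596_at, was under the floor on both arrays, with 14.4 in UBR2-/- and 7.3 in wild type testes, and gives no ratio. Id3, known with Id1 from blood vessel growth, had nearly equal signals of 172.3 in UBR2-/- and 168.6 in wild type testes (1416630_at, log2 ratio 0.03). Id1 was slightly lower, with 91.5 in UBR2-/- and 103.7 in wild type testes by its only probe set, 1425895_a_at, and a log2 ratio of -0.18, which is 1.02 SDs below the median of all probe sets. Taken by the brightest probe set, the ratio of Id4 was below that of Id1 by a log2 difference of -0.89, below that of Id2 by -1.21 and below that of Id3 by -1.10. The SD of such a difference, from the SD between probe sets, was 0.27 for Id1, 0.18 for Id2 and 0.22 for Id3. A constant rescaling of either array moves all genes alike and leaves these differences as they are. The brightest probe set of Id4 was also its lowest, however. Its other log2 ratios, -0.81 and -0.65, lay nearer those of Id1, Id2 and Id3 and would give smaller differences.

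The stretch of DNA before the start of Id4 is shown beside those of Id2 and Id3, since BMP signals are known to act on Id genes through SMAD proteins. No window of Id1 was among those used, so Id1 is not shown. DNA farther upstream, where such sites can also lie, was not searched. The sequences are those of RefSeq on build GRCm38.p6, the 250 bases before the annotated start of each gene, 5′ to 3′ along the gene, and capitals mark matches to GGCGCC, the palindrome of the BMP-responsive element described for mouse Id1, and to the E box CANNTG. Both motifs read the same on either strand, and no match overlapped another in these windows.
Id4, chr13:48260866-48261115, plus strand: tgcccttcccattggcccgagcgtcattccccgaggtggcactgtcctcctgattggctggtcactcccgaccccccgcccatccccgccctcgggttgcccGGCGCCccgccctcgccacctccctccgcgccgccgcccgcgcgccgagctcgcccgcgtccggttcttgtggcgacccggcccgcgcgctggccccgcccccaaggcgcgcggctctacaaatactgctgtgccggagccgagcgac
Id2, chr12:25096093-25096342, minus strand: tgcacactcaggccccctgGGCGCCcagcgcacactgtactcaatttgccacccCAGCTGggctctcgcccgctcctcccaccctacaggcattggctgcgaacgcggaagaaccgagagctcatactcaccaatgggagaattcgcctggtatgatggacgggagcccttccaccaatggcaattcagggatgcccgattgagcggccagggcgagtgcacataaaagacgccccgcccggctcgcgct
Id3, chr4:136143572-136143821, plus strand: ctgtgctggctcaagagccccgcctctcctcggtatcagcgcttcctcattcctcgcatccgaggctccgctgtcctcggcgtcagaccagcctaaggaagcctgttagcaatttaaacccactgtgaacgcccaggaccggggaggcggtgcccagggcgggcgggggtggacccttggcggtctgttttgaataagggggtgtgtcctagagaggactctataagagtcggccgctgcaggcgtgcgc
The Id4 window held 1 GGCGCC, starting 148 bases before the gene's start, and 0 E boxes, at a GC content of 75.6%. The Id2 window held 1 GGCGCC and 1 E box, CAGCTG, and the Id3 window held 0 of either. Of 32851 promoter windows of the same length 9.59% held at least 1 GGCGCC and 66.2% at least 1 E box, and their median GC content was 52.4%. These shares were not matched for GC content. A motif made only of G and C is likelier in GC-rich windows, and that of Id2 had 62.8% GC. Id4 and Id2, whose log2 ratios were -1.07 and 0.14, thus both held the palindrome, and a match describes the letters and shows no binding.

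Tcf3, whose E2A proteins are known for starting lymphocyte development, was the E protein gene farthest above 0 on the UBR2-/- array. Its brightest probe set, 1426297_at, had a signal of 171.8 in UBR2-/- and 113.4 in wild type testes. This 1.51-fold higher value, a log2 ratio of 0.60, was the 540th highest of 13628, and at least 1.5-fold higher were 4.27% of all compared probe sets. Its probe set 1427764_a_at had 69.2 in UBR2-/- and 49.5 in wild type testes, a log2 ratio of 0.48, on the same side. The third, 1452542_x_at, designed from the same sequence as the second, was under the floor on both arrays, with 11.6 in UBR2-/- and 3.5 in wild type testes. Against the SD between probe sets, Tcf3 lay 2.92 and 1.73 SDs above the median of all.

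The 250 bases before the start of Tcf3, from the same RefSeq table, are shown because it was the member farthest above 0.
Tcf3, chr10:80433636-80433885, minus strand: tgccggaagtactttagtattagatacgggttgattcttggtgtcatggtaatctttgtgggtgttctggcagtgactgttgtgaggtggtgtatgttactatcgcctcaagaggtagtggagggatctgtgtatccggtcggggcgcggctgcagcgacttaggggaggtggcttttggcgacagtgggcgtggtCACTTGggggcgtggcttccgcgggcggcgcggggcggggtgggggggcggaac
The window held 1 E box, shown in capitals, which began 54 bases before the start, and 0 matches to the BMP-response palindrome, at a GC content of 59.6%.

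Tcf12, which encodes the E protein HEB of T cell development, stood slightly higher on the UBR2-/- array in both of its probe sets. The brighter, 1427670_a_at, had a signal of 671.6 in UBR2-/- and 602.7 in wild type testes, a log2 ratio of 0.16. Its other probe set, 1421908_a_at, had 267 in UBR2-/- and 231.4 in wild type testes, a log2 ratio of 0.21. The 2 readings differed by 0.05 and both lay within 1 SD of the median of all probe sets.

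Tcf4, an E protein gene best known from the nervous system and from dendritic cells, had 6 probe sets, of which all 5 compared lay below the median of all. The brightest, 1434148_at, had nearly equal signals, 186.6 in UBR2-/- and 189.5 in wild type testes, with a log2 ratio of -0.02. The next, 1434149_at, designed from the same clone, had 93.1 in UBR2-/- and 128.8 in wild type testes, a log2 ratio of -0.47, so probe sets of 1 transcript source disagreed by more than the SD between probe sets. The dim 1416724_x_at had 39.2 in UBR2-/- and 41.6 in wild type testes, and 1416723_at had 33.4 in UBR2-/- and 40.3 in wild type testes, with log2 ratios of -0.09 and -0.27. For 1424089_a_at the UBR2-/- signal of 22.8 was under the floor and the wild type signal was 36, which makes it at least 1.46-fold lower. The last, 1416725_at, was under the floor on both arrays, with 7.0 in UBR2-/- and 2.3 in wild type testes. The mean over the 5 was -0.28 ± 0.23 (SD over probe sets, n = 5), and the difference between the brightest probe sets of Tcf3 and Tcf4 was 0.62 on the log2 scale, with an SD of 0.26 from the spread between probe sets.

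**Figure D2:**
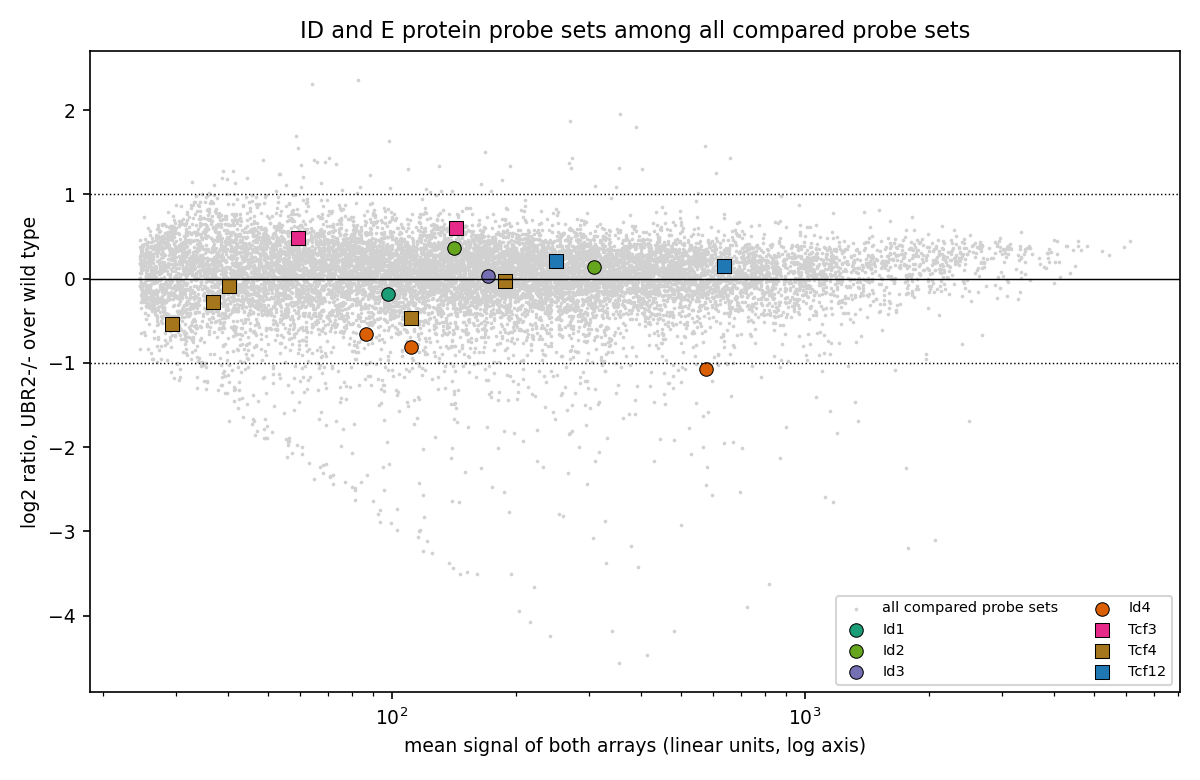
Log2 ratio of UBR2-/- over wild type against the mean signal of both arrays (log axis) for the 13628 compared probe sets (grey), with ID genes as coloured circles and E protein genes as coloured squares; dotted lines mark 2-fold. The brightest Id4 probe set lies at -1.07, with 2.55% of all compared probe sets lower, some of them of similar brightness. The others of Id4 lie at -0.81 and -0.65, while those of Id2, Id3 and Tcf12 lie inside the grey band.

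The genes whose pair of signals was most like that of each brightest probe set were found over the 2 arrays by the distance of the log2 signals, a measure of level and ratio only. For Id4 the nearest was Znhit1, with 387.9 in UBR2-/- and 774.9 in wild type testes, at a distance of 0.06, and then Sccpdh, with 360.9 in UBR2-/- and 727.4 in wild type testes, at 0.11. For Tcf3 they were Dicer1, which cuts small RNA precursors, and Isoc1, at distances of 0.013 and 0.022. Those of Id1 were Zmynd11 and Mrm3, those of Id2 Sowahc and Gabpa, those of Id3 Timm10b and Pex5, those of Tcf4 Cmtr1 and Tmem106b, and those of Tcf12 Qpct and Ubqln1, all at distances of 0.025 or less. The distances for Id4 were the largest of the 7.

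The tissue-specific bHLH partners of E proteins were mostly too dim to be compared. Counts over gene lists use the brightest probe set of each gene, and of 8091 compared genes 3.52% were lower and 0.346% higher by 2-fold or more, with a median log2 ratio of 0.07. Of 28 partner genes on the array 8 were compared, 1 of them lower by 2-fold or more, 0 higher and 7 between, with a median of 0.05. The 1 was Mesp1, known from early heart mesoderm, with 17.5 in UBR2-/- testes, under the floor, and 94.5 in wild type testes, at least 3.83-fold lower. Its relative Mesp2 had 30.1 in UBR2-/- and 42.9 in wild type testes, a log2 ratio of -0.51. The brightest partner, Tcf21, known from gonad and kidney development, had 478.3 in UBR2-/- and 450.3 in wild type testes, a log2 ratio of 0.09. On the other side Tcf23 had 52.5 in UBR2-/- and 30.9 in wild type testes, a log2 ratio of 0.76, and Ascl2 was at least 1.53-fold higher.

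Among HES, HEY and BHLHE repressors, a second class of inhibitory bHLH factors and in part targets of Notch signals, 5 of 11 genes were compared and 0 passed 2-fold in either direction. All 5 were dim and had ratios above 0, with a median of 0.41. Hes1 had 82.3 in UBR2-/- and 61.9 in wild type testes (log2 ratio 0.41), Heyl had 41.9 in UBR2-/- and 29.4 in wild type testes (0.51), Bhlhe40 had 37.1 in UBR2-/- and 27.7 in wild type testes (0.42), and Hey1 and Hes6 had log2 ratios of 0.18 and 0.07. Other factors that bind E boxes had a median of 0.17 over 17 compared genes, of which 1 was lower by 2-fold or more, 0 were higher by that much and 16 fell between. The lower one was Tcfl5, a bHLH gene of germ cells and the brightest of this list, with 834.7 in UBR2-/- and 1709.9 in wild type testes and a log2 ratio of -1.03. Myc, under the floor in wild type testes, was at least 1.82-fold higher, Usf1 had 0.55 and 0.14 by its 2 probe sets, Tfeb had -0.44 and Mxi1 0.17.

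The BMP pathway, which lies upstream of Id genes, showed differences under 2-fold by the brightest probe set of each gene. Of its 24 genes on the array 10 were compared, 0 passed 2-fold in either direction, and these ratios ran from -0.18 to 0.27 with a median of 0.06. Other probe sets of some genes lay farther out, down to -0.68 for Smad1 and -0.41 for Acvr2a and up to 0.65 for Acvr1, genes named here after their values were seen. The ligand gene Bmp4 had 69.5 in UBR2-/- and 57.8 in wild type testes, a log2 ratio of 0.27. The receptor gene Bmpr1a had 648.2 in UBR2-/- and 617.2 in wild type testes, a ratio of 0.07 in the brightest of 4 compared probe sets that ranged up to 0.53. Smad4, the shared partner of the signal-carrying SMADs, had 528.4 in UBR2-/- and 472.4 in wild type testes (0.16), while the inhibitory Smad7 had 0.16 and the decoy receptor gene Bambi had -0.18. Ligand genes Bmp2, Bmp5, Bmp6, Bmp8a and Bmp8b were below the floor on both arrays.

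**Figure D3:**
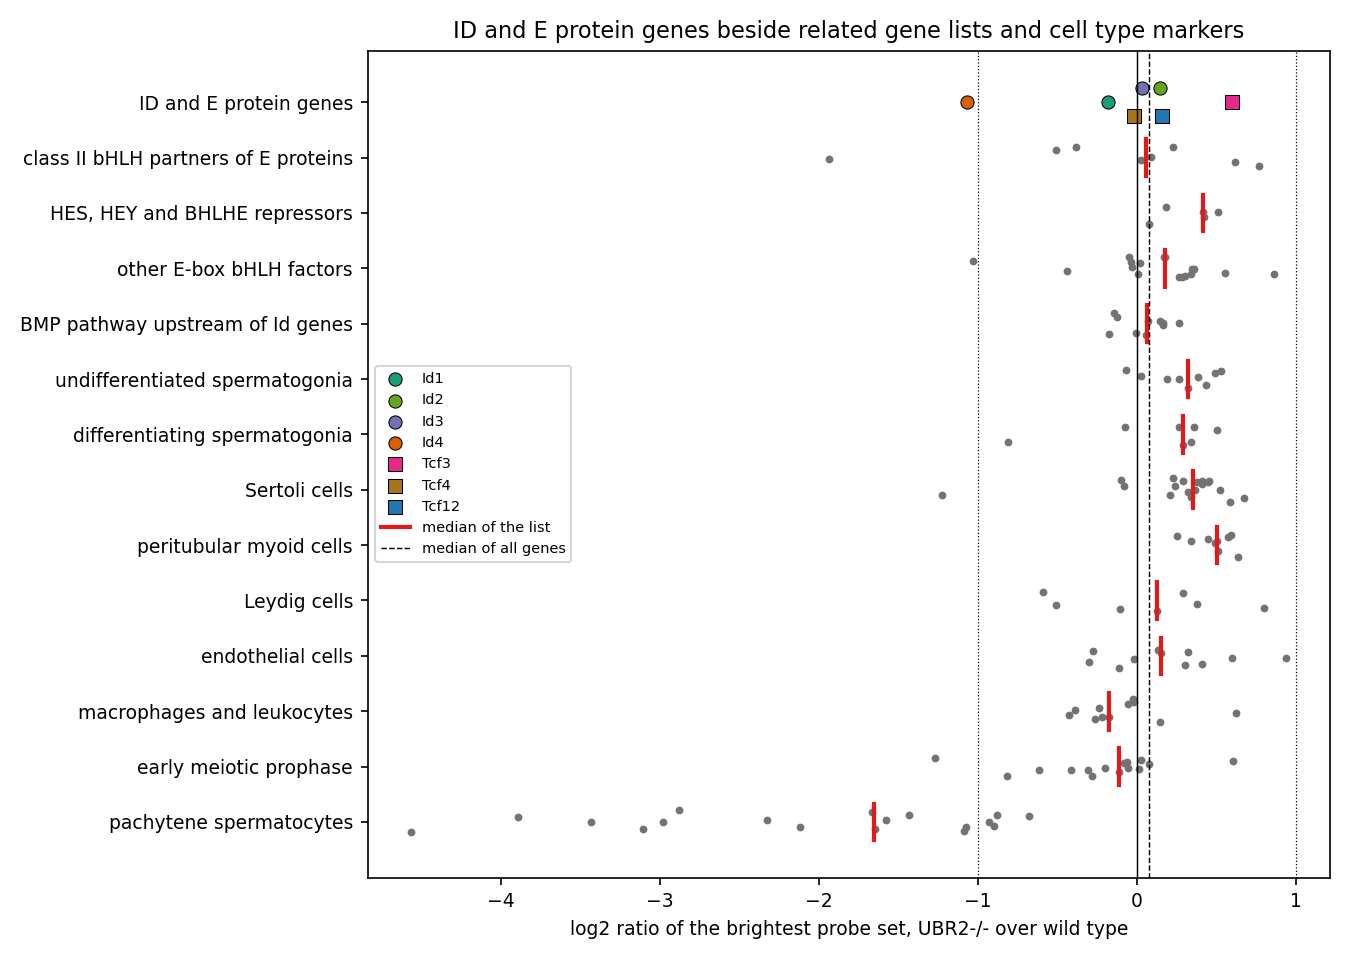
Log2 ratio of UBR2-/- over wild type by brightest probe set for the ID (circles) and E protein genes (squares) in the top row, and for each compared gene (grey points) of 13 lists below, with the median of each list in red; points are spread vertically for legibility, dotted lines mark 2-fold and the dashed line the median of all genes. Id4 at -1.07 lies to the left of all compared genes of both spermatogonia lists, and the pachytene list alone has its median, -1.66, below -1.

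Marker genes of testis cell types were measured on the same arrays, where fewer cells of a type and less RNA per cell cannot be told apart. The arrays do not show in which cell types the 7 followed genes were made. Both spermatogonia lists lay above the median of all genes while Id4, in neither list, lay below it. Of 9 compared genes of undifferentiated spermatogonia 7 were above that median, with a list median of 0.32 and summed signals over 16 genes of 1605 in UBR2-/- and 1274 in wild type testes. Sall4 and Lin28a, kept on in stem and progenitor spermatogonia, had log2 ratios of 0.43 and 0.38, Cdh1 had 0.53, Upp1 0.49, Foxo1 0.27 and Uchl1 0.32. The 2 genes below that median, named here after their values were seen, were also stem and progenitor genes, Zbtb16 with 0.02 and Etv5 with -0.07 in its brightest and -0.26 in its lowest probe set. The stem cell genes Gfra1, Bcl6b, Eomes, Lhx1, Pax7 and Neurog3 were below the floor on both arrays, and gave no ratio. Of 7 genes of differentiating spermatogonia 5 were above the median of all, with a list median of 0.29 and summed signals of 2942 in UBR2-/- and 2483 in wild type testes. The exception farthest from 0 was Dmrtb1, which acts at the step into meiosis, with 120.8 in UBR2-/- and 212.6 in wild type testes and a log2 ratio of -0.82. The other exception, Kit, named here after its values were seen, had -0.07 by its brightest and 0.97 by its other compared probe set. Stra8 had 0.50, Ccnd2 0.35, Dnmt3b 0.34 and Dmrt1 0.26.

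Pachytene genes were far lower in UBR2-/- testes, and genes of early prophase lay mostly within 2-fold. In the pachytene list 14 of 18 compared genes were lower by 2-fold or more and 0 higher, beside 3.52% and 0.346% of all compared genes. Like the other lists, it was chosen with earlier results of these data known. Its summed signals were 3211 in UBR2-/- and 12537 in wild type testes, and its median was -1.66. Among the lower genes Pgk2, Ccna1, Acr and Adam3 were under the floor in UBR2-/- testes. They were compared only through their wild type signals, and their ratios are bounds. Early prophase genes had a median of -0.11 over 15 genes, with 14 below the median of all genes and 1 (Prdm9) above it. By fold, 1 (Spo11) was lower by 2-fold or more and 14 lay between. Of these Psmc3ip had -0.82, Mlh3 -0.61 and Prdm9, which places meiotic DNA breaks, 0.61. Their summed signals, with Spo11, were 10871 in UBR2-/- and 12106 in wild type testes. Somatic markers had medians of 0.35 for 18 Sertoli cell genes, 0.50 for 9 peritubular myoid genes, 0.12 for 7 Leydig cell genes, 0.15 for 11 endothelial genes and -0.18 for 11 genes of macrophages and leukocytes, and summed signals in UBR2-/- testes of 22277, 5184, 1256, 483.6 and 978.3 in that order, against 17625, 3663, 1217, 405 and 1059.8 in wild type testes. The 1 somatic marker past 2-fold was Amh, a Sertoli cell hormone gene, with 25.5 in UBR2-/- and 59.7 in wild type testes. No gene of these lists was listed at a signal of 0 by its brightest probe set. Relative to the median of all genes, the ratios of Tcf3, Id2 and Tcf12 by the brightest probe set lay on the side of most cell type list medians. These were both spermatogonia lists and the Sertoli, myoid, Leydig and endothelial lists. The ratios of Id4, Id1, Id3 and Tcf4 lay on the side of the meiotic and the macrophage and leukocyte list medians. For most of these genes the side is not firm. Id3, Tcf4, Id2, Tcf12 and Id1 lay only 0.19, 0.49, 0.61, 0.70 and 1.02 SDs between probe sets from the median of all probe sets. The part of cell makeup in any of these 7 genes was not tested.

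**Figure D4:**
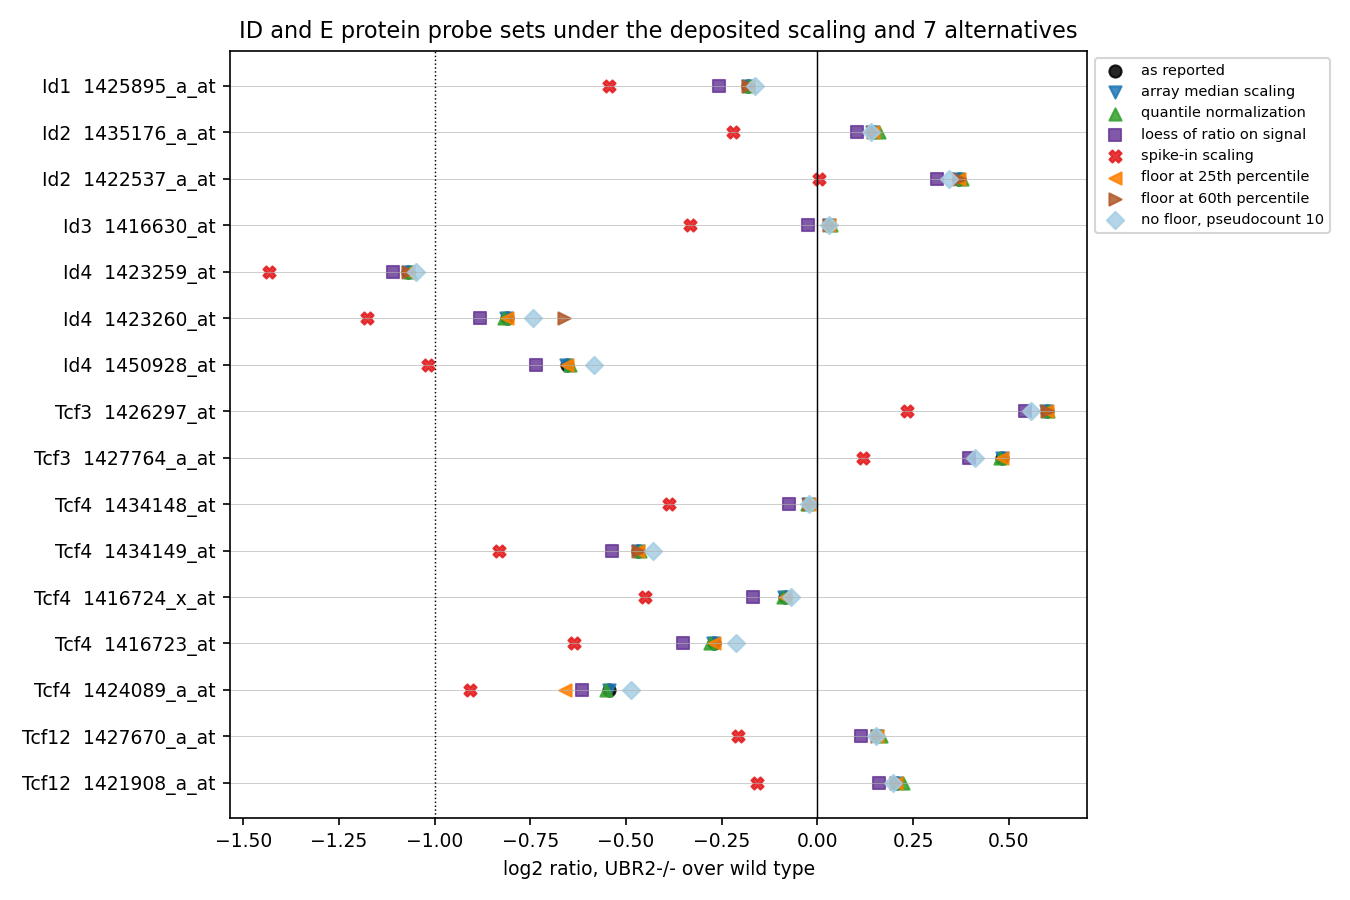
Log2 ratio of UBR2-/- over wild type for each of the 16 compared probe sets as reported and under 4 other scalings and 3 other treatments of low signals; the dotted line marks 2-fold lower. The brightest Id4 probe set stays left of the dotted line in all 7 alternatives, from -1.43 to -1.05, and spike-in scaling (red crosses) lies lowest for every probe set.

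Across scalings and floors the side of Id4, Id1, Tcf3 and Tcf4 was kept in every alternative that left the probe set compared. Spike-in scaling turned Id3, Tcf12 and the brightest probe set of Id2 below 0, at -0.33 for Id3, -0.21 and -0.16 for Tcf12 and -0.22 for Id2, and took the other Id2 probe set to 0.0046. It put Tcf3 at 0.23 and 0.12, and all 3 probe sets of Id4 past 2-fold, at -1.43, -1.18 and -1.02. Loess also turned Id3, to -0.02. The 2-fold call of Id4 rests on its brightest probe set, since the mean over its 3 probe sets was -0.84.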

How the data were processed

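The authors deposited linear probe set intensities (signals) for 1 UBR2-/- and 1 wild type array. Per the submitters' processing notes they were made with MAS5, and the sources used here give no version, scaling target, present or absent calls, or genome build. The 2% trimmed means of the arrays were equal to 150.04, and this scaling was kept. Of 22626 non-control probe sets 20380 had 1 gene symbol, 691 several and 1555 none in an annotation that can be out of date; 20351 matched the GRCm38.p6 gene table by Entrez identifier.

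Floors at the 40th percentile, log2 ratios and a threshold of 2-fold were used (Python 3.11.15, pandas 2.3.3, statsmodels 0.14.6 for loess with span 0.3). Signals raised to the floor on 1 array give bounds. Names ending in _a_at, _s_at or _x_at mark probe sets that can bind several transcripts. Probe set SDs were scaled median absolute deviations over 2894 pairs. A pair was the 2 brightest probe sets of a gene among those compared and above the floor on both arrays. Pairs were split by brightness into 3 groups of like size at mean signals of 129.7 and 291.3. The number of arrays limits the precision. The calculation was tested on simulated data.

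Members, gene lists and tests were chosen with earlier results of these data known. Named genes are all members, Ubr2, the 4 genes farthest from 0 and the 2 brightest of each of 13 lists where the text needs them, list members below the floor, and the 2 nearest genes of each member. Promoter windows were used for 5 of the 7 genes. Those on chromosome 18, where Tcf4 lies, were left out for the members, and no window of Id1 was among those used.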

Additional observations from a re-analysis of the deposited data

How the results depend on the processing

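The count of 1 probe set at least 2-fold lower held under array median scaling, quantile normalization, loess, floors at the 25th and 60th percentiles, a pseudocount of 10, the brightest probe set per gene, and without _s_at, _x_at and _a_at probe sets. It was 3 with spike-in scaling and 3 at a threshold of 1.5-fold, all of Id4 in both cases, and 0 at 3-fold and 0 where the probe sets of a gene were averaged. The count of 0 at least 2-fold higher became 1, a probe set of Tcf3, at 1.5-fold and held under every other alternative. The median of the ID probe sets, -0.18, was -0.55 with spike-in scaling, -0.73 without _s_at, _x_at and _a_at probe sets, where Id4 gives 3 of the 4 left, and 0.088 without Id4, an alternative chosen after seeing the data. The median of the E protein probe sets, -0.02, was -0.39 with spike-in scaling and above 0 at 0.16 with the brightest probe set per gene or the floor at the 60th percentile and 0.18 with averaged probe sets. Of 107 recomputed ratios of single probe sets 91 moved by less than the SD between probe sets and 16 by more, all 16 under spike-in scaling. Over all compared probe sets, spike-in scaling gave 868 at least 2-fold lower and 19 higher, against 402 and 62 as deposited, so 97.9% of calls were lower against 86.6%. No paired analysis was possible because each genotype has 1 array, and no array could be left out.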
